A study of Mus musculus with 8 samples.

Results

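Cells that divide need new nucleotides, and the enzymes that make them, together with the serine and folate reactions that supply their carbon, form the 34 genes described here. The set runs from Prps1 and Prps2 to Psph and holds 8 roles: synthesis of phosphoribosyl pyrophosphate (PRPP), the common purine path, its AMP and GMP branches, purine salvage with nucleotide kinases, pyrimidine synthesis, deoxynucleotide supply, folate one-carbon metabolism and serine synthesis. Members were chosen by gene symbol, and all 34 were found among the 52097 genes of the deposited expression table.

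RNA came from mouse bone marrow cells sorted as CD48-CD150+LSK, the gate for haematopoietic stem cells. LSK stands for lineage-negative, Sca-1-positive and Kit-positive. There were 3 libraries from Nup214fl/fl,Mx1-Cre mice, called KO below, and 5 from Nup214fl/fl mice, called FL. In KO mice both Nup214 alleles carry loxP sites and the Mx1-Cre recombinase can delete the part between them, whereas FL mice carry the same alleles with no Cre. Mice of both genotypes were sampled 3 days after they were given pIpC, an artificial double-stranded RNA used to raise interferon and with it Mx1-Cre. The Mx1 promoter answers to interferon in many cell types, so deletion need not be limited to stem cells. Only KO mice carried Cre, so an effect of Cre and an effect of Nup214 loss cannot be told apart. The sources used here do not give age, sex or the number of mice behind a library, and a p-value below therefore reflects variation among libraries that may in part be technical. NUP214 is a protein of the cytoplasmic face of the nuclear pore.

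The values are FPKM, fragments per kilobase of transcript and per 1000000 mapped fragments, a unit that allows genes of different length to be compared within a library. Values in every list below run over KO replicates 1 to 3, then FL replicates 1 to 5. Estimated depth, counted in 1000000 fragments, was 16.1 to 22.6 in KO and 19.8 to 44.4 in FL libraries, and the fewest fragments behind any member value came to 153 in KO (Shmt1) and 587 in FL (Mthfd2). Nup214 itself stood at 17.6, 9.66 and 18.2 FPKM in KO and 43.2, 65.2, 48.5, 34.2 and 55.3 FPKM in FL libraries (log2 fold change -1.66 ± 0.25, SE, limma adjusted p = 0.000289). Mitochondrial genes took 37.8% to 43.3% of summed FPKM in KO and 5.02% to 6.66% in FL libraries, and since FPKM is relative to a library's total, a larger share for some genes means a lower FPKM for the rest. The median log2 fold change over the 15121 genes tested was -0.81 as deposited. Results are therefore also given after median-ratio rescaling, in which every library is divided by 1 factor taken from the genes above 0 in all 8 libraries. That factor was 0.681 to 0.705 in KO and 1.19 to 1.29 in FL libraries, and the median of all genes was then -0.13. Rescaled, the log2 fold change of Nup214 was -0.85 (adjusted p = 0.0255), a call that was lost without KO replicate 2 (-0.57, adjusted p = 0.0842) or without FL replicate 5 (-0.82, adjusted p = 0.0503).

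The labelled cell type was checked against its markers, and the KO libraries departed from it. Kit, the receptor by which LSK cells are sorted, was 9.12, 3.46 and 23.4 FPKM in KO and 174, 128, 132, 124 and 127 FPKM in FL libraries. Meis1, a transcription factor of stem cells, averaged 7.39 ± 3.75 FPKM in KO libraries and 118 ± 17.2 FPKM in FL libraries. Ly6a, which encodes Sca-1, was close between the groups as deposited, at 330.2 ± 55.95 FPKM in KO libraries and 329 ± 14.9 FPKM in FL libraries. Slamf1, which encodes CD150, was at 3.17 ± 1.71 FPKM in KO libraries and 4.45 ± 0.793 FPKM in FL libraries. Rescaled, Ly6a was higher in KO (log2 fold change 0.83, limma adjusted p = 0.00120) and Slamf1 did not pass (0.17, adjusted p = 0.721). Kit and Meis1 were lower rescaled as well (-2.95 and -3.18, limma adjusted p = 0.00115 and 9.97e-05). Over 16 stem and progenitor markers, 13 were lower, 1 was higher and 2 did not pass, with summed levels of 351 to 451 FPKM in KO and 1279 to 1708 FPKM in FL libraries; Hoxb5 was listed at 0 in KO replicate 1. Macrophage markers went the other way, with 11 of 13 higher. Their sums were 1850, 7474 and 3971 FPKM in KO replicates 1 to 3 and 436 to 596 FPKM in FL libraries. Marco was listed at 0 in FL replicates 1 and 4. It met the filter only through the KO libraries, so its call was bound to the filter as well. Of 15 T and NK cell markers 14 were higher, with sums of 2107 to 2841 FPKM in KO and 397 to 1013 FPKM in FL libraries, and Ncr1 was listed at 0 in FL replicate 1. Of 12 stromal and endothelial markers, 10 were tested, 7 were higher and 2 lower. Their sums were 342 to 798 FPKM in KO and 76.7 to 92.3 FPKM in FL libraries. Among the higher ones, Lepr, Col1a1, Cdh5 and Kdr met the filter only through the KO libraries, so those calls were bound to it. The 12 erythroid markers summed to 133 to 392.3 FPKM in KO and 535 to 835 FPKM in FL libraries, and 5 of the 10 tested were lower and 2 higher. Car2 made up most of each FL sum. The 2 higher were the globins Hba-a1 and Hbb-bs (log2 fold change 2.845 and 1.375, limma adjusted p = 0.000350 and 0.0165), while the globin Hbb-bt was lower (-2.166, adjusted p = 0.0136). Beside all these marker counts, 59.5% of all genes tested were lower and 8.91% higher as deposited. In bulk RNA, fewer cells of a type and less RNA per cell cannot be told apart, and this holds for every result below. The part that the mixture of cells plays in the results was not tested.

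As background, purines are built stepwise on a ribose phosphate: PRPP synthetases activate the ribose, PPAT commits it to the purine path, and 5 further proteins complete inosine monophosphate (IMP). IMP is then turned into GMP by IMP dehydrogenase and GMP synthetase, or into AMP by adenylosuccinate synthetase and lyase. Pyrimidines are built as a ring first, by CAD and DHODH, and joined to PRPP by UMPS. Serine made from the glycolytic intermediate 3-phosphoglycerate by PHGDH, PSAT1 and PSPH gives its side-chain carbon to folate through the serine hydroxymethyltransferases, and MTHFD enzymes pass that carbon on as formate or formyl-tetrahydrofolate for purines. Salvage enzymes such as HPRT and APRT rebuild nucleotides from free bases and need no new ring. In blood, resting stem cells divide rarely and progenitors divide often, and inherited or drug-induced blocks of these paths are known for their effects on blood cell formation.

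Nearly the whole path was lower in KO cells. Of the 34 members, 31 fell, 0 rose (0 also at an unadjusted p under 0.05) and 3 did not pass limma's test; over all genes tested, 59.5% fell and 8.91% rose. The 3 that did not pass were Hprt, Cmpk1 and Mthfd2. In 31 members every KO library was below every FL library, against 54.5% of all genes. Each of the 34 had an FPKM of at least 1 in all 8 libraries and all were tested, so no member was lost to the filter on low values. Their median log2 fold change was -1.51, with a range of -2.78 (Phgdh) to -0.26 (Cmpk1), beside -0.81 for all genes tested, and 29 of the 34 lay below that median. In 28 members the KO mean was at most 50% of the FL mean, and in 4 (Phgdh, Pfas, Impdh2 and Paics) it was under 25%. Tests were made with limma on log2(FPKM + 1), with Benjamini-Hochberg adjustment across the whole table and a threshold of 0.05.

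After median-ratio rescaling 19 members were lower, 1 (Cmpk1) was higher and 14 did not pass, with a median of -0.71 beside -0.13 for all genes. The same scaling called 21.4% of all genes lower and 16.5% higher. These shares, and those as deposited, are the background for the counts of each role below. Quantile normalization also gave 19 members lower and 1 higher, beside 20.4% and 16.7% of all genes. Rescaling to the total without mitochondrial genes gave 29 lower and 0 higher, beside 39.0% and 11.8%, and leaving out their nuclear copies as well gave 22 lower and 1 higher, beside 22.6% and 15.4%. Under all 5 scalings tried, and with any 1 library left out both as deposited and rescaled, 18 members were lower. They were Prps1, Prps2, Ppat, Pfas, Paics, Adsl, Atic, Impdh1, Impdh2, Adss, Umps, Ctps2, Dut, Dtymk, Mthfd1, Shmt1, Shmt2 and Phgdh. Of these the common purine path gave 5 and its branches 3. The share of all genes that met this combined rule was not worked out, so the 18 cannot be set against a background.

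**Figure D1:**
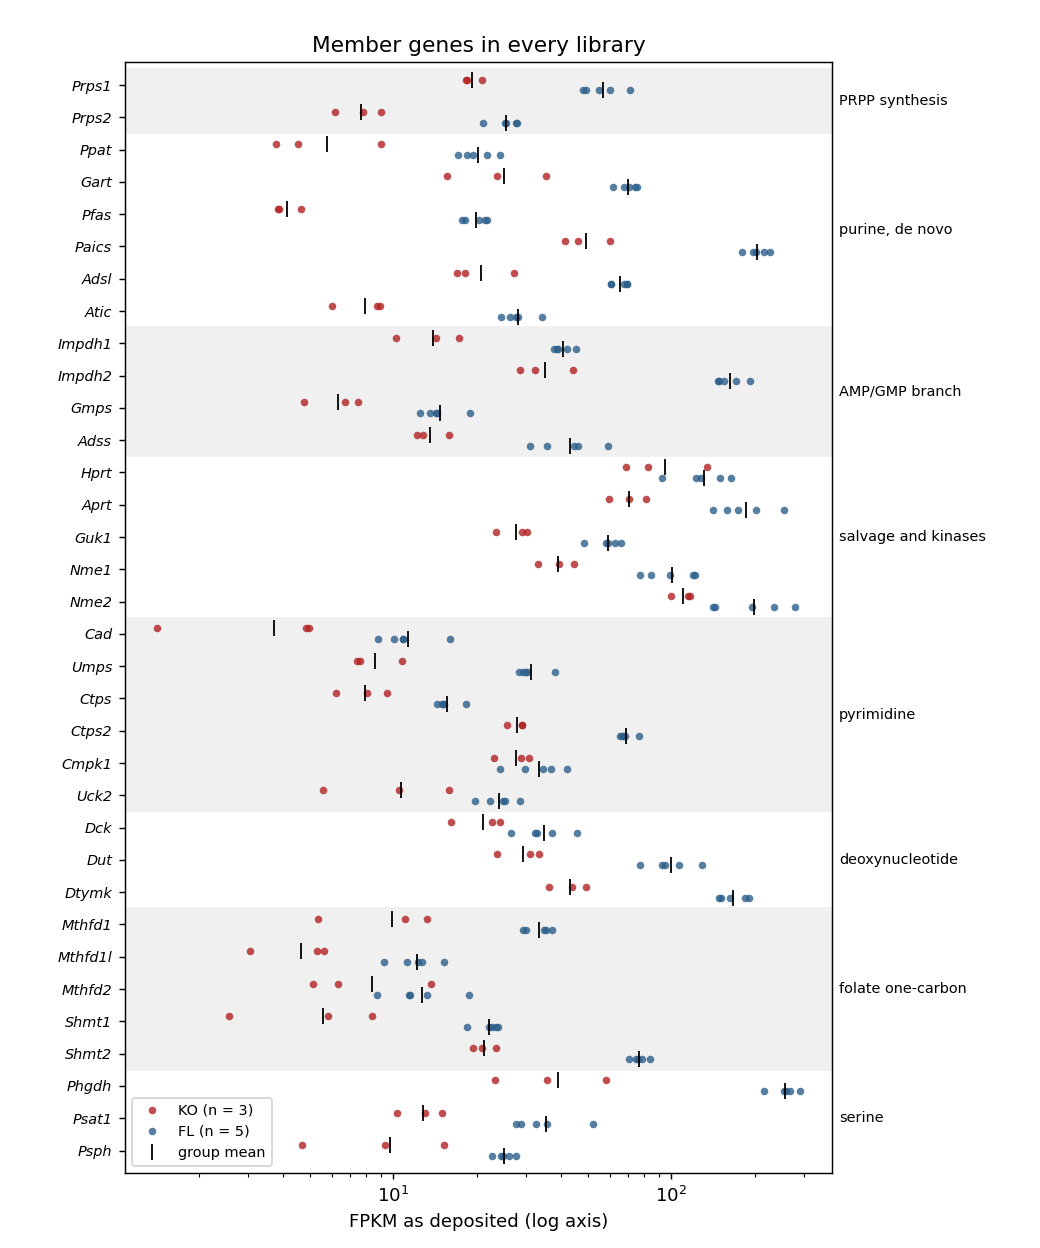
FPKM as deposited, on a log axis, of the 34 members in 3 KO (red) and 5 FL (blue) libraries, with a tick at each group mean, ordered by role. In 31 members the KO points lie left of all FL points; Hprt, Cmpk1 and Mthfd2 are the rows where they overlap.

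**Figure D2:**
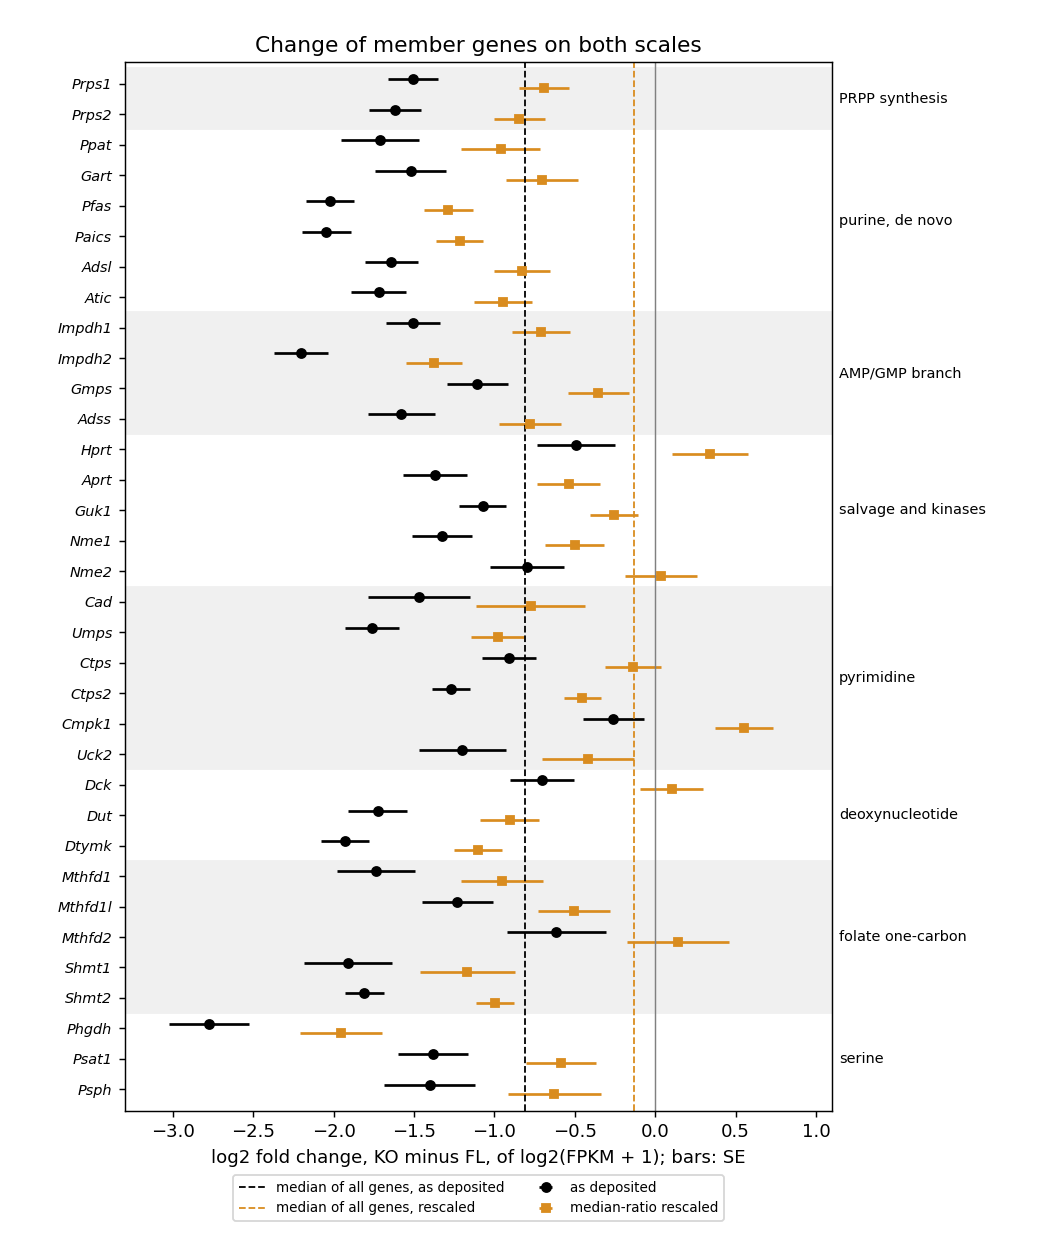
Log2 fold change (KO minus FL, bars SE) of each member as deposited (black circles) and after median-ratio rescaling (orange squares), with dashed lines at the median of all genes, -0.81 and -0.13. Of the black circles 29 lie left of the black line, and rescaling shifts all members to the right.

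Both PRPP synthetases fell. Prps1 (chrX:140456613-140476140 on GRCm38) encodes the broadly expressed isoform and was 20.9, 18.2 and 18.5 FPKM in KO libraries, against 49.2, 60.2, 48.2, 71.2 and 54.9 FPKM in FL libraries. Prps2, its paralogue on the same chromosome, was 7.75, 6.18 and 9.03 FPKM in KO libraries, against 21.02, 25.3, 25.4, 27.7 and 27.7 FPKM in FL libraries. The groups were well apart for both genes. Their log2 fold changes were -1.50 ± 0.15 (SE, limma adjusted p = 3.38e-05) for Prps1 and -1.62 ± 0.16 (adjusted p = 2.99e-05) for Prps2, or -0.69 ± 0.16 and -0.85 ± 0.16 rescaled (adjusted p = 0.00658 and 0.00244).

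The 6 enzymes of the common purine path were all lower, with a median log2 fold change of -1.72 and of -0.95 rescaled, and all 6 passed on both scales. Ppat encodes the amidotransferase of the committed step and was 4.52, 3.78 and 8.99 FPKM in KO libraries, against 17.1, 21.7, 18.3, 24.2 and 19.4 FPKM in FL libraries. It was highest in KO replicate 3, which still lay below the lowest FL library (log2 fold change -1.71 ± 0.24, SE, limma adjusted p = 0.000199; rescaled -0.96 ± 0.25, adjusted p = 0.0125). Paics, the bifunctional carboxylase and SAICAR synthetase, was the most abundant of the 6. Its values were 46.1, 41.3 and 60.02 FPKM in KO libraries, against 180.1, 216, 202, 226 and 197 FPKM in FL libraries, so the KO mean was 24.1% of the FL mean (log2 fold change -2.05 ± 0.15, SE, limma adjusted p = 7.89e-06; rescaled -1.22 ± 0.14, adjusted p = 0.000221). Ppat and Paics lie on opposite strands and overlap at their starts. Their RefSeq starts lie 276 bases apart on chromosome 5, and each gene is read across the start of the other. Their promoter windows (GRCm38.p6, 250 bases before to 50 after each start, RefSeq) are shown because both genes start within 1 stretch of DNA and both fell. The 2 windows do not meet, so part of the stretch between the starts is not shown. Capitals mark 4 motifs on either strand: the E-box CACGTG, which MYC and USF proteins bind, the CARE element TGATGNAA, which ATF4 binds, the CCAAT box CCAAT and the GC box GGGCGG.
Paics, chr5:76951052-76951351, plus strand: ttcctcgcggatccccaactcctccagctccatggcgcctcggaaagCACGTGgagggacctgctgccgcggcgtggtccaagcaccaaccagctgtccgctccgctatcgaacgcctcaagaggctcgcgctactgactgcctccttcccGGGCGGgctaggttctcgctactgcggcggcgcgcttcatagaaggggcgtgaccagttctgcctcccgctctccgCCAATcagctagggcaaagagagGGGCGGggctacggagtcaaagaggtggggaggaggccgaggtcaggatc
Ppat, chr5:76951529-76951828, minus strand: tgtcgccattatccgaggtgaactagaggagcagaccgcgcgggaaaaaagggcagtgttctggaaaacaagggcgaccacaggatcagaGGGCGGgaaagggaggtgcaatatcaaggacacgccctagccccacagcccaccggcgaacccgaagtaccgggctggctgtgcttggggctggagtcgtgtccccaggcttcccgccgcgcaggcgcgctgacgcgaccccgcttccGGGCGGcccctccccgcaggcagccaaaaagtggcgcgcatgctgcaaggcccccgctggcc
The Paics window holds 1 E-box, 1 CCAAT box and 2 GC boxes, and the Ppat window holds 2 GC boxes and no match to the other motifs.

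Pfas, which makes the FGAM intermediate, was among the most reduced, at 4.66, 3.88 and 3.85 FPKM in KO libraries, against 18.2, 21.7, 20.3, 17.7 and 21.3 FPKM in FL libraries. The KO values lay close together and the KO mean was 20.8% of the FL mean (log2 fold change -2.02 ± 0.15, SE, limma adjusted p = 7.99e-06; rescaled -1.29 ± 0.15, adjusted p = 0.000220). Gart, a single protein that carries out 3 steps of the path, was more variable in KO cells, at 23.7, 15.6 and 35.5 FPKM in KO libraries, against 73.9, 75.03, 61.9, 70.7 and 67.6 FPKM in FL libraries. As deposited, KO replicate 3 was well above KO replicate 2 but below every FL library (log2 fold change -1.52 ± 0.22, SE, limma adjusted p = 0.000233). Rescaled, KO replicate 3 (50.4) lay above FL replicate 3 (48.1). The rescaled change of Gart, -0.70 ± 0.23, passed (adjusted p = 0.0341), but its adjusted p reached 0.0962 with a library left out. After quantile normalization Gart did not pass (adjusted p = 0.0563). Adsl, which acts both in this path and in the AMP branch, was 27.1, 18.1 and 16.9 FPKM in KO and 69.02, 67.8, 69.2, 60.8 and 60.6 FPKM in FL libraries. Atic, which carries out the last 2 steps to IMP, was 8.72, 8.95 and 6.03 FPKM in KO and 27.7, 34.4, 26.3, 28.1 and 24.4 FPKM in FL libraries. For both, all KO libraries were below all FL libraries, with log2 fold changes of -1.64 ± 0.16 and -1.72 ± 0.17 (adjusted p = 2.95e-05 and 2.93e-05), or -0.83 ± 0.17 and -0.95 ± 0.18 rescaled (adjusted p = 0.00448 and 0.00284).

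In the branches from IMP the GMP side changed most at its first step. Impdh2, the IMP dehydrogenase that proliferating cells mainly use, was 44.4, 28.5 and 32.2 FPKM in KO libraries, against 147, 172, 155, 192 and 149 FPKM in FL libraries. Its KO mean was 21.5% of the FL mean (log2 fold change -2.20 ± 0.17, SE, limma adjusted p = 9.07e-06; rescaled -1.38 ± 0.17, adjusted p = 0.000277). Impdh1, the second isoform, was 17.3, 10.2 and 14.3 FPKM in KO libraries, against 45.5, 39.1, 37.9, 42.2 and 38.8 FPKM in FL libraries. It also fell with no overlap, by a smaller amount (log2 fold change -1.51 ± 0.17, SE, limma adjusted p = 5.35e-05; rescaled -0.71 ± 0.18, adjusted p = 0.0117). Impdh2 has the largest fall of the purine genes among the members, and its promoter window is shown with the same marks.
Impdh2, chr9:108560186-108560485, plus strand: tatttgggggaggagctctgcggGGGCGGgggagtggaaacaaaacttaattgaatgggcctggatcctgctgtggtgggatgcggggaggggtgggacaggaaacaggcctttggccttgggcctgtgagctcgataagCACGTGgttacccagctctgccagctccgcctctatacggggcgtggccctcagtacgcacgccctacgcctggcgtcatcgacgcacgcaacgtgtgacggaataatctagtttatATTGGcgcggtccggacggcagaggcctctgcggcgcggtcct
It holds 1 E-box, 1 GC box and 1 CCAAT box, the last read on the opposite strand as ATTGG.

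Gmps, the GMP synthetase that follows, was 6.72, 4.78 and 7.44 FPKM in KO libraries, against 12.5, 14.4, 13.6, 18.8 and 14.2 FPKM in FL libraries. The groups did not overlap as deposited (log2 fold change -1.11 ± 0.19, SE, limma adjusted p = 0.000603), but the rescaled change of -0.35 ± 0.19 did not pass (adjusted p = 0.172). Adss, the adenylosuccinate synthetase of the AMP side, was 12.8, 12.2 and 15.8 FPKM in KO libraries, against 31.1, 35.7, 45.98, 59.1 and 44.8 FPKM in FL libraries. FL replicates spread widely, between 31.1 and 59.1 FPKM, and the highest KO library was still at 15.8 FPKM (log2 fold change -1.58 ± 0.21, SE, limma adjusted p = 0.000128; rescaled -0.78 ± 0.19, adjusted p = 0.0111).

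Salvage enzymes and kinases had a smaller median change than the building path, a difference that was not tested. Of the 5 genes 4 fell as deposited, beside 59.5% of all genes, with a median log2 fold change of -1.07. After rescaling 0 of 5 passed limma's test (2 at an unadjusted p under 0.05), with a median of -0.25. That scaling called 21.4% of all genes lower, so counts over 5 genes say little. Hprt, which salvages hypoxanthine and guanine, was 68.5, 134.5 and 82.8 FPKM in KO libraries, against 92.6, 149, 123, 164 and 128 FPKM in FL libraries. KO replicate 2 lay inside the FL range, and the difference did not pass (log2 fold change -0.49 ± 0.24, SE, limma adjusted p = 0.0969). It did pass without KO replicate 2 (-0.77, adjusted p = 0.0135) or without FL replicate 1 (-0.61, adjusted p = 0.0406), and its rescaled estimate had the opposite sign (0.34 ± 0.24, adjusted p = 0.285). Aprt, which salvages adenine, was 59.6, 70.6 and 81.02 FPKM in KO libraries, against 158.5, 202, 174, 254 and 141 FPKM in FL libraries. Here the groups were apart as deposited (log2 fold change -1.37 ± 0.20, SE, limma adjusted p = 0.000233), and rescaled the change was -0.54 ± 0.20 (adjusted p = 0.0533).

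Guk1 phosphorylates GMP and was 30.3, 28.99 and 23.4 FPKM in KO and 58.4, 66.03, 62.8, 59.2 and 48.5 FPKM in FL libraries (log2 fold change -1.07 ± 0.15, SE, limma adjusted p = 0.000161). Nme1 and Nme2 encode nucleoside diphosphate kinases, which make triphosphates from diphosphates, and they are neighbours on chromosome 11. Nme1 was 33.1, 44.8 and 39.5 FPKM in KO and 84.4, 122, 99.1, 119 and 77.4 FPKM in FL libraries (log2 fold change -1.32 ± 0.19, SE, limma adjusted p = 0.000184). Nme2 was 114, 99.8 and 116 FPKM in KO and 143, 234, 196, 279 and 142 FPKM in FL libraries (log2 fold change -0.80 ± 0.23, SE, limma adjusted p = 0.0112), and rescaled it stood at 0.04 ± 0.23 (adjusted p = 0.916). A read-through gene model, Gm20390, overlaps both on the same strand and averaged 38.4 FPKM in KO and 70.1 FPKM in FL libraries, so the split of reads among the 3 models is uncertain.

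Pyrimidine genes were mixed. Of 6, 5 fell as deposited and Cmpk1 did not pass, with a median of -1.24. Rescaled, Umps and Ctps2 were lower, Cmpk1 was higher and 3 did not pass. Cad, the trifunctional protein that starts the ring, was low throughout at 4.83, 1.41 and 4.95 FPKM in KO libraries, against 10.9, 10.8, 10.1, 16.01 and 8.84 FPKM in FL libraries. KO replicate 2 held the lowest value of any member (log2 fold change -1.47 ± 0.32, SE, limma adjusted p = 0.00232), and rescaled the change was -0.77 ± 0.34 (adjusted p = 0.1003). Umps, which completes UMP, was 7.56, 7.37 and 10.8 FPKM in KO libraries, against 28.4, 30.2, 29.2, 38.3 and 29.9 FPKM in FL libraries. It had the largest fall of the 6, to 27.4% of the FL mean (log2 fold change -1.76 ± 0.17, SE, limma adjusted p = 2.27e-05; rescaled -0.98 ± 0.16, adjusted p = 0.00136).

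CTP synthetase is encoded by Ctps and Ctps2, and the more abundant Ctps2 fell more. Ctps2 was 29, 25.5 and 29.1 FPKM in KO libraries, against 66.97, 66.5, 65.5, 68.2 and 76.5 FPKM in FL libraries (log2 fold change -1.27 ± 0.12, SE, limma adjusted p = 2.07e-05; rescaled -0.45 ± 0.12, adjusted p = 0.0133). Ctps was 9.48, 6.21 and 8.03 FPKM in KO libraries, against 15.1, 15.2, 14.3, 18.2 and 14.9 FPKM in FL libraries, with no overlap as deposited (log2 fold change -0.91 ± 0.17, SE, limma adjusted p = 0.000936) and a rescaled change of -0.14 ± 0.17 (adjusted p = 0.559). Cmpk1, the UMP and CMP kinase, was the least changed member at 23.03, 28.8 and 30.7 FPKM in KO libraries, against 24.1, 36.8, 29.8, 42.3 and 34.5 FPKM in FL libraries. The groups overlapped and the difference did not pass (log2 fold change -0.26 ± 0.19, SE, limma adjusted p = 0.245). Rescaled it was higher by 0.55 ± 0.18 (adjusted p = 0.0373), a call lost without any 1 of FL replicates 1, 2, 3 or 5 or KO replicates 2 or 3 (adjusted p between 0.0561 and 0.116). Uck2, a uridine and cytidine salvage kinase, was 15.8, 5.57 and 10.5 FPKM in KO libraries, against 22.2, 28.6, 19.6, 24.7 and 25.3 FPKM in FL libraries; KO replicate 2 was the lowest and KO replicate 1 the highest of its group (log2 fold change -1.20 ± 0.27, SE, limma adjusted p = 0.00303; rescaled -0.42 ± 0.29, adjusted p = 0.276).

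Of the 3 deoxynucleotide genes, Dtymk and Dut fell on both scales. Dtymk, the thymidylate kinase, was 49.5, 36.3 and 44.01 FPKM in KO libraries, against 150.5, 190.0, 184, 148 and 163 FPKM in FL libraries. The highest KO library, at 49.5 FPKM, was far under the lowest FL library (log2 fold change -1.93 ± 0.15, SE, limma adjusted p = 9.68e-06; rescaled -1.10 ± 0.15, adjusted p = 0.000407). Dut, which removes dUTP and so keeps uracil out of DNA, was 30.98, 23.6 and 33.5 FPKM in KO libraries, against 77.3, 129, 92.3, 106 and 94.7 FPKM in FL libraries (log2 fold change -1.73 ± 0.19, SE, limma adjusted p = 4.15e-05; rescaled -0.91 ± 0.18, adjusted p = 0.00383). Dck, the kinase that salvages deoxycytidine and other deoxynucleosides, was 22.7, 24.1 and 16.1 FPKM in KO libraries, against 26.5, 37.2, 32.4, 45.8 and 32.9 FPKM in FL libraries. Its groups were narrowly apart as deposited (log2 fold change -0.71 ± 0.20, SE, limma adjusted p = 0.00965), and its rescaled estimate had the opposite sign (0.103 ± 0.20, adjusted p = 0.713).

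Folate one-carbon enzymes fell in 4 of 5 cases, with a median log2 fold change of -1.74, and 3 of 5 passed rescaled. Shmt2, the mitochondrial serine hydroxymethyltransferase, was 19.3, 20.9 and 23.3 FPKM in KO libraries, against 78.2, 74.9, 76.1, 83.5 and 70.7 FPKM in FL libraries. Its replicates were tight in both groups, and its KO mean was 27.6% of the FL mean (log2 fold change -1.81 ± 0.12, SE, limma adjusted p = 5.75e-06; rescaled -0.997 ± 0.12, adjusted p = 0.000230). Shmt1, its cytosolic counterpart, was 8.39, 5.82 and 2.56 FPKM in KO libraries, against 22.6, 23.3, 23.9, 22.1 and 18.5 FPKM in FL libraries. KO replicate 3 was lowest and KO replicate 1 highest, all below FL (log2 fold change -1.91 ± 0.28, SE, limma adjusted p = 0.000217; rescaled -1.17 ± 0.30, adjusted p = 0.0118). Mthfd1, the trifunctional cytosolic enzyme that interconverts one-carbon folates, was 10.99, 5.34 and 13.2 FPKM in KO libraries, against 35.3, 34.9, 29.3, 37.3 and 30.01 FPKM in FL libraries (log2 fold change -1.74 ± 0.24, SE, limma adjusted p = 0.000187; rescaled -0.95 ± 0.26, adjusted p = 0.0153).

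Mthfd1l releases formate from mitochondria and was 5.63, 3.04 and 5.30 FPKM in KO libraries, against 9.29, 12.6, 12.3, 15.3 and 11.2 FPKM in FL libraries. The groups did not overlap as deposited (log2 fold change -1.23 ± 0.22, SE, limma adjusted p = 0.000803), and rescaled the change of -0.504 ± 0.23 did not pass (adjusted p = 0.107). Mthfd2, the mitochondrial dehydrogenase and cyclohydrolase upstream of it, was 13.7, 6.32 and 5.13 FPKM in KO libraries, against 8.76, 11.5, 11.3, 18.7 and 13.2 FPKM in FL libraries. KO replicate 1 exceeded 4 of the 5 FL libraries, and the difference did not pass (log2 fold change -0.61 ± 0.31, SE, limma adjusted p = 0.103). Without KO replicate 1 it passed (-0.99, adjusted p = 0.00895), and rescaled with all libraries it stood at 0.14 ± 0.32 (adjusted p = 0.751).

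Serine synthesis held the largest fall of all members. Phgdh, the dehydrogenase that draws 3-phosphoglycerate into serine, was 58.2, 23.2 and 35.6 FPKM in KO libraries, against 259, 255, 267, 290.2 and 216 FPKM in FL libraries. It was the most abundant member in FL libraries, and its KO mean was 15.2% of the FL mean (log2 fold change -2.78 ± 0.25, SE, limma adjusted p = 1.68e-05). Only 1.61% of all genes tested had a lower log2 fold change, and the rescaled change was -1.95 ± 0.26 (adjusted p = 0.000362). Phgdh has 12 annotated pseudogene copies, whose summed FPKM equalled 16.2% of its own value in KO and 1.75% in FL libraries, so a part of its reads may be counted elsewhere. Its promoter window is shown because it is the member with the largest fall.
Phgdh, chr3:98339920-98340219, minus strand: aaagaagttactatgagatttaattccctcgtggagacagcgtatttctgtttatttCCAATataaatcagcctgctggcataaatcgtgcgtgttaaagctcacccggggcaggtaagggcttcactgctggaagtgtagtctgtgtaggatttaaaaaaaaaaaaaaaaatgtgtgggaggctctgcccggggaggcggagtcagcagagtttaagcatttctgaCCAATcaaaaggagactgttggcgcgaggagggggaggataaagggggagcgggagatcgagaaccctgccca
It holds 2 CCAAT boxes and no match to the E-box, the CARE element or the GC box.

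The 2 enzymes after PHGDH fell less. Psat1, the phosphoserine aminotransferase, was 14.9, 13.04 and 10.3 FPKM in KO libraries, against 27.7, 35.8, 32.6, 52.3 and 28.7 FPKM in FL libraries (log2 fold change -1.38 ± 0.22, SE, limma adjusted p = 0.000366). Psph, the phosphatase that releases serine, was 9.30, 4.70 and 15.2 FPKM in KO libraries, against 24.4, 25.98, 24.8, 22.6 and 27.6 FPKM in FL libraries (log2 fold change -1.40 ± 0.28, SE, limma adjusted p = 0.00149). Every KO library was below every FL library for both, but KO values of Psph ranged between 4.70 and 15.2 FPKM. Rescaled, neither passed, with -0.59 ± 0.22 (adjusted p = 0.0589) for Psat1 and -0.63 ± 0.29 (adjusted p = 0.115) for Psph. The Psph model overlaps the abundant Cct6a gene, at 73.0 FPKM in KO and 139 FPKM in FL libraries, and the strand setting of the counting is not given in the sources used here.

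Across the set, promoter letters were close to those of other genes for 2 motifs and more frequent for the other 2. RefSeq windows were matched for 33 members, 41 windows in all, and compared with 32851 windows of all genes. The GC box occurred in 68.3% of member windows and 35.7% of all windows, and the E-box in 14.6% of member windows and 7.15% of all. E-box matches belonged to Paics, Atic, Impdh2, Nme1 and Dtymk. CCAAT occurred in 36.6% of member windows and 37.4% of all, and the CARE element in 2.44% and 3.97%, with Prps1 the 1 member that held it. These are matches of letters, given without a test. The windows of all genes were not limited to expressed genes, whereas every member was expressed, so the sets were not matched.

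KO replicate 2 was the lowest KO library in 21 of the 34 members, KO replicate 3 in 8 and KO replicate 1 in 5. Relative to the FL mean of each gene, the median over members was -1.36, -1.78 and -1.30 on the log2(FPKM + 1) scale in KO replicates 1 to 3, and -0.54, -1.0 and -0.5 rescaled. KO replicate 2 also had the highest summed macrophage markers and the lowest summed stem and progenitor markers of the 3. Among FL libraries, FL replicate 4 was highest in 20 members and FL replicate 1 lowest in 14. FL replicate 4 had the largest sum of the 15 proliferation markers, 1592 FPKM, and FL replicate 1 the smallest of the FL libraries, 831 FPKM; KO libraries lay between 358 and 421 FPKM. All 15 proliferation markers fell as deposited and 6 fell rescaled, beside 59.5% and 21.4% of all genes tested. The part of cell division and of the cell mixture in the members' levels was not tested. All 31 members that fell also fell without KO replicate 2, as without any other library.

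**Figure D3:**
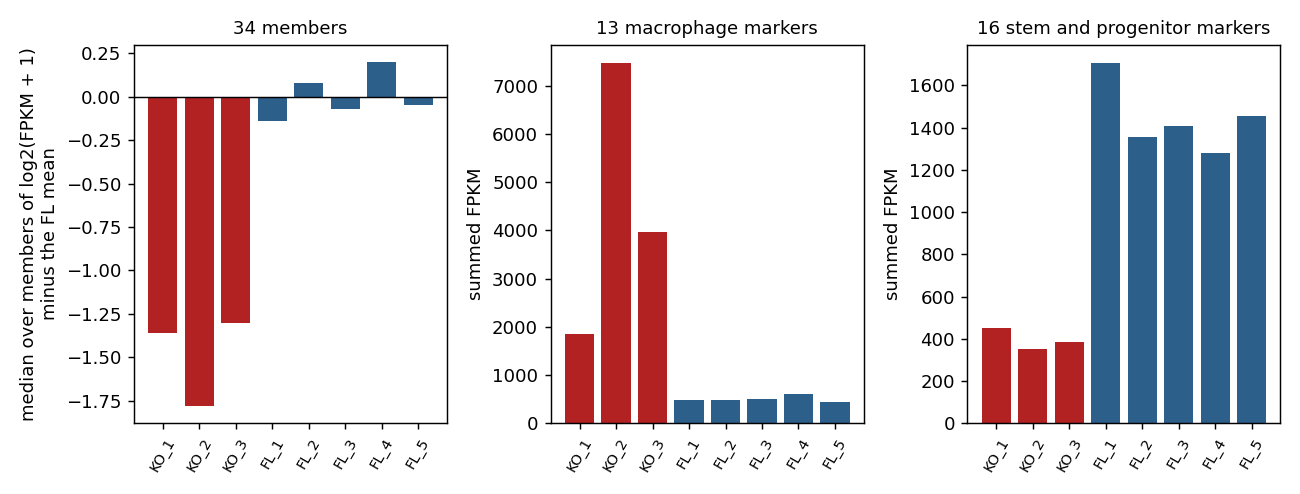
Per library, KO left and FL right: the median over the 34 members of log2(FPKM + 1) minus the FL mean (left panel), and the summed FPKM of 13 macrophage markers (middle) and 16 stem and progenitor markers (right). KO replicate 2 has the lowest member median, -1.78, beside the highest macrophage sum, 7474 FPKM. In the right panel, Ly6a makes up most of each KO bar.

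Balance between enzymes that share a reaction or a substrate was compared within each library, as the log2(FPKM + 1) of 1 gene minus that of the other, over 8 pairs. Such a difference does not depend on a factor that multiplies a whole library, apart from the pseudocount. In 3 pairs the difference between groups passed an exact two-sided permutation test (p = 0.0179, the smallest that 3 against 5 libraries allow; adjusted p = 0.0476 over the 8 pairs). The first was Impdh1 minus Impdh2, at -1.31, -1.40 and -1.12 in KO libraries, against -1.67, -2.11, -2.0, -2.16 and -1.91 in FL libraries. The minority isoform Impdh1 thus stood closer to Impdh2 in every KO library than in any FL library, with a shift of 0.69.

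The second was Mthfd1l minus Mthfd1, at -0.85, -0.65 and -1.18 in KO libraries, against -1.82, -1.40, -1.19, -1.24 and -1.35 in FL libraries. KO replicate 3 and FL replicate 3 nearly met, and the mean shift was 0.51. The third was Hprt minus Aprt, at 0.20, 0.92 and 0.03 in KO libraries, against -0.77, -0.43, -0.501, -0.63 and -0.14 in FL libraries. Hprt was above Aprt in all 3 KO libraries and below it in all 5 FL libraries, a shift of 0.88. With a pseudocount of 0.1 in place of 1, or after any of 3 rescalings, 0 pairs passed (smallest adjusted p = 0.0714; 3 or 4 pairs at an unadjusted p under 0.05), and in 2 pairs rather than 3 the groups did not overlap. Over those 4 settings the shift lay between 0.66 and 0.678 for Impdh1/Impdh2, between 0.394 and 0.475 for Mthfd1l/Mthfd1 and between 0.853 and 0.885 for Hprt/Aprt. With few libraries the test has few possible p-values, and the adjusted p depends on how many pairs reach the smallest.

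Of the other 5 pairs, Mthfd2 minus Mthfd1 had the largest shift, 1.12, and did not pass (exact permutation p = 0.0536, adjusted p = 0.0714). It averaged -0.24 ± 0.85 in KO libraries and -1.36 ± 0.36 in FL libraries (SD, n = 3 and 5), and KO replicate 3 lay among the FL libraries. Nme1 minus Nme2 shifted by -0.53 and Ctps minus Ctps2 by 0.36, each with an exact permutation p of 0.0357 (adjusted p = 0.0571). For Prps1 minus Prps2 the shift was 0.11 (exact permutation p = 0.482). Shmt2 minus Shmt1 averaged 1.85 ± 0.84 in KO libraries and 1.75 ± 0.12 in FL libraries, a shift of 0.1004 (exact permutation p = 0.732) that was -0.36 without KO replicate 3, the library with the lowest Shmt1. Where the longest coding transcripts of a pair could be aligned, 70.4% to 80.4% of the aligned bases were identical.

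**Figure D4:**
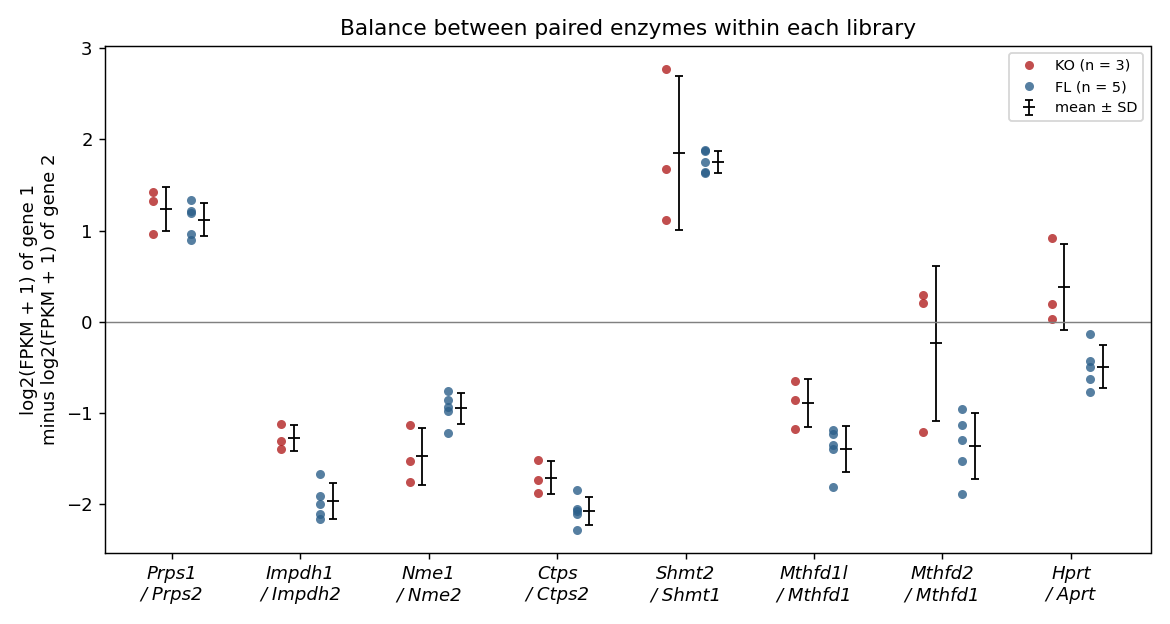
Within-library difference in log2(FPKM + 1) between the paired genes named on the horizontal axis (upper name minus lower name), for 3 KO (red, left) and 5 FL (blue, right) libraries with mean ± SD. The groups do not overlap for Impdh1/Impdh2, Mthfd1l/Mthfd1 and Hprt/Aprt, while the KO points of Shmt2/Shmt1 spread on both sides of the FL points.

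Genes of the neighbouring reactions that are not members were taken from 7 lists. Of 101 genes 100 were in the table and 86 were tested: 66 fell, 5 rose and 15 did not pass, beside 59.5% of all genes lower and 8.91% higher, with a median of -1.02 beside -0.81 for all genes and -1.51 for the members. Rescaling left 27 lower and 11 higher (median -0.23), beside 21.4% and 16.5% of all genes. These shares are the background for the counts of each list below. The genes named below have the smallest p of their list or resolve a small count.

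Supply of deoxynucleotides was lower in 11 of 12 genes as deposited and in 5 of 12 rescaled, with Rrm1, Dctd and Dctpp1 among them. Rrm1, the large subunit of ribonucleotide reductase, was 15.3, 17.2 and 12.8 FPKM in KO and 43.7, 52.9, 48, 68.8 and 51.6 FPKM in FL libraries (log2 fold change -1.74 ± 0.17, SE, limma adjusted p = 2.61e-05; rescaled -0.93, adjusted p = 0.00194). Dctpp1, which hydrolyses dCTP and its modified forms, was 29.4, 27.6 and 22.7 FPKM in KO and 124, 170.5, 150.3, 126 and 104 FPKM in FL libraries (-2.29 ± 0.18, adjusted p = 9.68e-06; rescaled -1.47, adjusted p = 0.000257). Dctd, the dCMP deaminase that feeds thymidylate synthesis, was 4.09, 1.48 and 2.68 FPKM in KO and 29.4, 30.7, 24.8, 20.1 and 22.4 FPKM in FL libraries (-2.87 ± 0.24, adjusted p = 1.40e-05; rescaled -2.17, adjusted p = 0.000264). In each of the 3, all KO libraries lay below all FL libraries. The 1 gene of this list that did not pass was Samhd1, a dNTP hydrolase, at 103, 81.6 and 80.8 FPKM in KO and 47.5, 62.5, 66.97, 82.9 and 72.5 FPKM in FL libraries (0.42 ± 0.18, adjusted p = 0.0653); rescaled it was higher by 1.25 (adjusted p = 0.000519).

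Of 20 other genes of nucleotide synthesis, 15 fell, 1 rose and 4 did not pass, and rescaled 9 were lower and 2 higher. Nme4, a mitochondrial nucleoside diphosphate kinase, had a larger fall than any member, to 10.5, 13.9 and 7.17 FPKM in KO libraries, against 123, 126, 116, 92.2 and 98.3 FPKM in FL libraries (log2 fold change -3.31 ± 0.20, SE, limma adjusted p = 4.45e-06; rescaled -2.52, adjusted p = 4.09e-05). Adssl1, the second adenylosuccinate synthetase, was 13.4, 14.5 and 11.8 FPKM in KO and 86.9, 76.6, 93.1, 118.5 and 77.5 FPKM in FL libraries (-2.67 ± 0.17, adjusted p = 4.55e-06; rescaled -1.87, adjusted p = 4.97e-05). Gmpr, which turns GMP back to IMP, was 5.47, 2.97 and 4.94 FPKM in KO and 28.1, 24.1, 26.6, 25.5 and 23.1 FPKM in FL libraries (-2.31 ± 0.18, adjusted p = 1.09e-05; rescaled -1.57, adjusted p = 0.000275). No KO library reached the FL range in these 3 genes. Cda, a cytidine deaminase, was low in both groups and higher in KO libraries, with 1.38, 1.85 and 1.43 FPKM in KO libraries, against 0, 0.06, 0.23, 0.13 and 0.07 FPKM in FL libraries (log2 fold change 1.22 ± 0.18, SE, limma adjusted p = 0.000287; rescaled 1.58, adjusted p = 0.000235). It met the filter on low values only through the 3 KO libraries, so the call was bound to the filter, and without any 1 of them it was not tested.

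Of 10 breakdown genes 6 were lower and 2 higher as deposited, and 2 were lower and 3 higher rescaled, and the lower shares are near those of all genes. Ampd2, the AMP deaminase, was 11.7, 10.4 and 15.4 FPKM in KO and 48.3, 40.6, 38.96, 38.4 and 39.3 FPKM in FL libraries (-1.65 ± 0.16, adjusted p = 2.14e-05; rescaled -0.86, adjusted p = 0.00258), and Nt5c3, a pyrimidine nucleotidase, averaged 31.3 ± 6.01 FPKM in KO libraries and 61.8 ± 5.82 FPKM in FL libraries (-0.97 ± 0.15, adjusted p = 0.000324). Rescaled, the change of Nt5c3 was -0.15 and did not pass (adjusted p = 0.452). Nt5e encodes CD73, a surface enzyme that releases adenosine from AMP and is also made by lymphocytes and stromal cells. It was 10.1, 5.55 and 4.59 FPKM in KO libraries, against 0.34, 0.42, 1.91, 0.50 and 0.88 FPKM in FL libraries, with every KO library above every FL library (log2 fold change 2.09 ± 0.32, SE, limma adjusted p = 0.000322; rescaled 2.68, adjusted p = 0.000219). Among FL libraries only FL replicate 3 reached 1 FPKM. Nt5e thus met the filter on low values only through the KO libraries, so its call was bound to the filter. Without FL replicate 3 the FL mean of Nt5e was 0.535 FPKM in place of 0.81. Gda, the guanine deaminase, was also higher, at 12.3, 7.08 and 8.97 FPKM in KO libraries, against 0.98, 3.10, 1.89, 6.79 and 2.90 FPKM in FL libraries (log2 fold change 1.46 ± 0.39, SE, limma adjusted p = 0.00791; rescaled 2.16, adjusted p = 0.00177).

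In the folate list 9 of 13 genes fell and 1 rose, and rescaled 3 were lower and 3 higher. Slc19a1, the reduced folate carrier, was 7.95, 5.72 and 3.10 FPKM in KO and 33.6, 28.6, 27.5, 30.99 and 23.3 FPKM in FL libraries (-2.24 ± 0.24, adjusted p = 4.28e-05; rescaled -1.49, adjusted p = 0.00173). Fpgs, which adds the glutamate tail that keeps folates in the cell, was 4.64, 8.07 and 6.86 FPKM in KO and 18.96, 19.5, 19.1, 18.9 and 18.9 FPKM in FL libraries (-1.44 ± 0.17, adjusted p = 7.64e-05; rescaled -0.68, adjusted p = 0.0120). Mthfd2l, a paralogue of Mthfd2, was 1.29, 1.97 and 2.12 FPKM in KO and 7.47, 12.7, 9.51, 6.30 and 8.51 FPKM in FL libraries (-1.80 ± 0.24, adjusted p = 0.000128; rescaled -1.17, adjusted p = 0.00403). These 3 were lower in every KO library and on both scales. Folr2, a folate receptor of macrophages, was 15.3, 111 and 17.6 FPKM in KO libraries, against 2.56, 1.19, 0.55, 0.30 and 1.66 FPKM in FL libraries (log2 fold change 3.94 ± 0.63, SE, limma adjusted p = 0.000521; rescaled 4.59, adjusted p = 0.000468). KO replicate 2, which has the highest macrophage marker sum, held most of it: without that library the KO mean was 16.5 FPKM in place of 48.0, and the call remained (3.05, adjusted p = 0.000208).

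Glycine and serine handling fell in 10 of 13 genes and 0 rose, with 4 lower rescaled. The list also held Slc25a28, which encodes a mitochondrial iron carrier and did not pass (-0.19, limma adjusted p = 0.537). Gcat and Amt met the filter on low values only through the FL libraries, so those calls were bound to the filter. Gcat, a mitochondrial enzyme of threonine and glycine metabolism, was nearly absent from KO libraries, at 0, 0.34 and 0.37 FPKM in KO libraries, against 8.98, 9.61, 6.13, 13.7 and 9.04 FPKM in FL libraries (log2 fold change -3.06 ± 0.25, SE, limma adjusted p = 1.27e-05; rescaled -2.68, adjusted p = 9.81e-05). The neutral amino acid carriers Slc38a1 and Slc38a2 averaged 21.1 ± 4.32 FPKM in KO libraries and 68.6 ± 5.46 FPKM in FL libraries for Slc38a1 and 15.4 ± 3.49 FPKM in KO libraries and 46.04 ± 3.61 FPKM in FL libraries for Slc38a2 (SD, n = 3 and 5), and both were lower on both scales (rescaled -0.86 and -0.74, adjusted p = 0.00217 and 0.00637). Of 8 methionine and transsulfuration genes 6 fell and 1 rose, and rescaled 2 were lower and 2 higher. Mat2a, which makes S-adenosylmethionine, was 69.4, 62.9 and 83.2 FPKM in KO and 196, 189, 179, 143 and 170.1 FPKM in FL libraries (-1.28 ± 0.15, adjusted p = 6.89e-05, and rescaled -0.45, adjusted p = 0.0427). Mat2a did not pass after quantile normalization (-0.39, limma adjusted p = 0.115). With a library left out, its rescaled adjusted p reached 0.126. Ahcy, which removes S-adenosylhomocysteine, also fell (-1.68 ± 0.20, adjusted p = 7.07e-05; rescaled -0.89, adjusted p = 0.00604). Mtap, which recovers methionine and adenine, fell as deposited (-1.05 ± 0.15, adjusted p = 0.000174) but did not pass rescaled (-0.28, adjusted p = 0.169). The gene that rose was Ahcyl2, an AHCY-like protein, at 8.32, 20.8 and 7.63 FPKM in KO and 3.13, 4.04, 5.27, 5.67 and 4.70 FPKM in FL libraries (log2 fold change 1.14 ± 0.31, SE, limma adjusted p = 0.00894; rescaled 1.87, adjusted p = 0.00129); without KO replicate 2 its KO mean was 7.98 FPKM in place of 12.3 (0.71, adjusted p = 0.0205).

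Of 10 known regulators of these genes, 9 fell as deposited, 2 (Myc and Tfdp1) were lower rescaled, and E2f1 did not pass on either scale. Myc, a transcription factor known to drive nucleotide synthesis genes, was 41.7, 33.2 and 53.4 FPKM in KO libraries, against 302, 237, 210.5, 197 and 209 FPKM in FL libraries. All KO libraries were far below the FL range (log2 fold change -2.42 ± 0.19, SE, limma adjusted p = 1.07e-05; rescaled -1.59, adjusted p = 0.000290). Atf4, the amino acid stress factor known to drive Phgdh, Psat1, Psph and Mthfd2, was 34.95, 30.7 and 42.9 FPKM in KO libraries, against 63.1, 66.9, 66.1, 65.2 and 65.8 FPKM in FL libraries. As deposited it fell (log2 fold change -0.85 ± 0.13, SE, limma adjusted p = 0.000343), close to the median of all genes, and rescaled it stood at -0.03 (adjusted p = 0.888). Ddit3, another gene of that stress response, averaged 19.9 ± 1.44 FPKM in KO libraries and 34.5 ± 2.77 FPKM in FL libraries (log2 fold change -0.77 ± 0.13, SE, limma adjusted p = 0.000488), and rescaled it stood at 0.04 (adjusted p = 0.827). What part these regulators have in the members' levels was not tested.

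**Figure D5:**
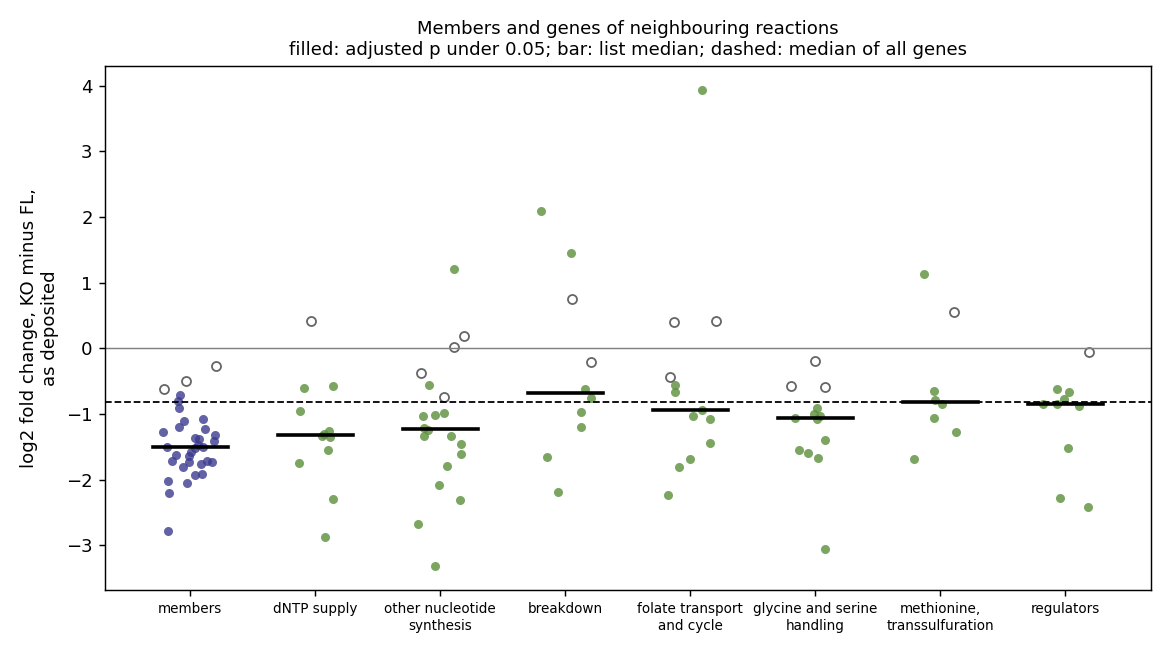
Log2 fold change (KO minus FL, as deposited) of the 34 members and of 86 tested genes in 7 lists of neighbouring reactions and regulators; filled points passed at an adjusted p under 0.05, open points did not, thick bars are list medians and the dashed line is the median of all genes, -0.81. The members' median lies at -1.51, and the 5 filled points above 0 are Cda, Nt5e, Gda, Folr2 and Ahcyl2.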

How the data were processed

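RNA from 8 libraries (3 KO, 5 FL) was amplified as cDNA with Geo-seq, which was made for small cell numbers, and libraries were made with a transposase kit, per the labels' protocols. The authors deposited FPKM values for 52097 genes, not counts. Bowtie 0.12.9, Cufflinks 2.1.1, HTSeq, DESeq2 and the build mm10 are listed, per the submitters' processing notes; which tool made the values, the annotation and the strand setting are not given in the sources used here. Genes took symbols and positions from GENCODE M21 on GRCm38.

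The test of KO against FL was limma's (version 3.58.1, R 4.3.3, with trend and robust settings) on log2(FPKM + 1), a scale that understates the change of low genes. Genes entered if they reached 1 FPKM in 3 or more libraries, 15121 in all, with Benjamini-Hochberg adjustment over all of them and a threshold of 0.05. The fit was also run on simulated data, drawn around each gene's mean with a small set of genes raised or lowered. Those data held no shift of most genes, so that run does not bear on the scaling. For paired enzymes the test was an exact permutation of the KO and FL labels, two-sided, with 56 arrangements. Alternatives were a pseudocount of 0.1, no filter or a filter at 5 FPKM, median-ratio, quantile and non-mitochondrial rescaling, each library left out, and a replicate block. A total without mitochondrial genes and their 15 nuclear copies, found with BLAST 2.17.0, and the libraries left out after rescaling were added after seeing the data.

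The members and lists were chosen with earlier results of these data known. Named genes were all members, Nup214, the 3 genes with the smallest p in each related list, genes that resolve a small count, and 4 sorting and stem cell markers. Depth was not stated: values in genes with 1 transcript fell on whole multiples of a step for 80.7% to 91.6% of values (tolerance 0.15 fragments; 30% by chance), which gave the estimated depths (exact two-sided permutation p = 0.107 between groups). This covers counting error only.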

Additional observations from a re-analysis of the deposited data

Results flagged for a closer look

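In 4 of 64 named results of the FL group, 1 library stood apart from the other 4 by Dixon's 95% criterion for 5 samples, a gap to the nearest value of over 0.71 of the group's range. Chance flags about 1 in 20 groups. Umps was 38.26 FPKM in FL replicate 4 (0.796 of the range), and Ctps was 18.23 FPKM in the same library (0.759). Ctps2 was 76.45 FPKM in FL replicate 5 (0.737), and Ampd2 was 48.31 FPKM in FL replicate 1 (0.756). In all 4 the library was the highest of its group, and no KO library could be searched, since groups of 3 are not tested. Umps, Ctps2 and Ampd2 were called lower in KO both as deposited and rescaled without any 1 library; Ctps was called lower as deposited without any 1 library.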

How the results depend on the processing

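Scaling moved the counts most. After median-ratio rescaling 19 members were lower and 1 higher (median -0.71), after quantile normalization 19 and 1 (median -0.62), with the non-mitochondrial total 29 and 0 (median -1.07), and with the total that also leaves out nuclear copies 22 and 1 (median -0.75). Related genes lower numbered 27, 25, 46 and 29 under these scalings and those higher 11, 11, 9 and 11; a filter at 5 FPKM left 3 higher. Share of higher calls among all genes was 8.91% as deposited against 16.5%, 16.7%, 11.8% and 15.4%.

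Signs turned after median-ratio rescaling for Hprt (0.34), Nme2 (0.036), Cmpk1 (0.55), Dck (0.103), Mthfd2 (0.14) and Ddit3 (0.043), after quantile normalization for Hprt (0.40), Nme2 (0.072), Cmpk1 (0.63), Dck (0.19), Mthfd2 (0.21), Atf4 (0.061) and Ddit3 (0.13), with the non-mitochondrial total for Cmpk1 (0.18), and without copies for Hprt (0.30), Cmpk1 (0.51), Dck (0.063), Mthfd2 (0.11) and Ddit3 (0.002). Pairs that passed numbered 0 with a pseudocount of 0.1 and after median-ratio, quantile and non-mitochondrial rescaling. The causes were not tested.

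Leaving out each library gave 31 to 32 members lower, 0 to 0 higher and a median of -1.55 to -1.40, or 18 to 22, 0 to 1 and -0.77 to -0.60 rescaled, where Cmpk1 was between 0.38 and 0.66 (as deposited down to -0.37). Related genes gave 61 to 65 lower and 4 to 7 higher, or 23 to 29 and 9 to 12 rescaled, and Nup214 -1.80 to -1.38, or -1.001 to -0.57 rescaled. No pair passed with a library left out, where the smallest possible p is 0.0286 or 0.0476, which passes over 8 pairs only where most of them reach it; Shmt2 minus Shmt1 turned to -0.36 without KO replicate 3 (range -0.36 to 0.47).

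Replicate numbers did not pair KO with FL libraries (correlations of deviations -0.035, 0.028 and -0.043); a replicate block gave 31 members lower, 0 higher and a median of -1.40. Depth limited the lowest members least in FL libraries, at 587 fragments or more, and most in KO, at 153.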
